A study of Mus musculus with 12 samples.

Results

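The vehicle-treated livers were 4 of the 12 livers of the series. They were chosen as every animal whose label gave DPBS, a phosphate-buffered saline injected in place of an antisense oligonucleotide (ASO), which the treatment field spells DBPS. Livers 1 and 2 came from females, and livers 3 and 4 came from males. RNA-seq of total liver RNA gave a transcript abundance table for each animal, and the question addressed here was how the RNA of these livers was divided among genes, isoforms and animals.

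All 12 animals were hFIX-R29X mice, a hemophilia B model that lacks the mouse factor IX gene (F9) and in which a minigene of the human factor carries a premature stop codon. The minigene was under the human transthyretin promoter, which is active mostly in hepatocytes, so the vehicle animals were not wild type. Mice of 8 to 14 weeks received 6 doses at 5-day intervals, and livers were taken 48 h after the last dose. The other groups, each also with 2 females and 2 males, received Control-GalNAc-ASO at 15 mg/kg or Upf3b-GalNAc-ASO at 10 mg/kg. GalNAc is a sugar ligand that carries an ASO into hepatocytes. Livers treated with an ASO against Upf1 were not analysed here. Each liver was a separate animal per the labels, and no batch was given.

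The liver makes most of the proteins of blood plasma, and hepatocytes, the bulk of its cells, secrete albumin, transferrin, apolipoproteins, clotting factors and complement. The same cells carry out urea synthesis, glucose output, fat breakdown and synthesis, bile acid production and the oxidation and conjugation of foreign compounds. In mice, several of these functions differ by sex under the pattern of growth hormone release. The major urinary proteins (Mups), small carriers of pheromones that pass from the liver to the urine, are a textbook case.

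The 4 vehicle libraries held 18500135 to 20387682 estimated counts, against 13277892 to 20387682 over all 12. Levels are given as gene TPM (the counts of each transcript divided by its effective length and scaled to the same fixed total in every library, summed per gene). Except where TPM is named, tests and CVs between livers use the counts or CPM. CPM is the counts divided by the size of each library, scaled by TMM, with no division by length. Shares, and values per liver given as TPM, are compared on the TPM scale. Between 99.24% and 99.54% of the counts of a vehicle liver, and between 90.12% and 96.96% of its TPM, belonged to the 31114 joined genes. The annotated F9 gene (chrX:59999464-60030759, GRCm38) was listed at 1.88 and 2.46 TPM in the females and 3.76 and 6.52 TPM in the males, at rank 9323. Whether those reads came from the minigene or from what remains of the mouse locus cannot be told apart. The vehicle livers each had 147 to 205 genes more than 2-fold from the median of the other 11 livers, but male liver 3 of the Control-GalNAc-ASO group had 1502 such genes. It held 3619 CPM of the acute phase gene Saa1, against 3.97 to 35.8 CPM in the other 11 livers, so comparisons that use it are given with and without it.

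All 4 hepatocyte markers were abundant in each vehicle liver. Albumin (Alb) ranked first by mean TPM, apolipoprotein A1 (Apoa1) ranked 25 and transthyretin (Ttr) ranked 29. Carbamoyl-phosphate synthase (Cps1), which fixes ammonia for the urea cycle, ranked 90 by TPM with 5315, 6323, 5542 and 5649 CPM in livers 1 to 4. Ttr stood at 5651, 5161, 3245 and 4221 TPM. The tissue label and the markers were thus in accord.

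Markers of other liver cells were present at low levels. The 11 Kupffer cell markers, genes of the resident macrophages, held 0.0287% to 0.0481% of the joined TPM of a liver, led by Clec4f at 77.2, 98.5, 62.4 and 76.6 TPM. Sinusoidal endothelial markers held 0.0242% to 0.0336%, stellate cell markers 0.02% to 0.0349%, and cholangiocyte markers 0.00205% to 0.00365%. The 13 lymphocyte and neutrophil markers held 0.000514% to 0.00131%. Only 1 of them, Ly6g, a marker of mouse neutrophils, was at 0 in all 4 livers. Another member, S100a9, was at 0.722, 0.298, 0.352 and 0.368 CPM. Blood was visible through globin RNA, since erythroid markers held 0.141% in liver 1 and 0.0728%, 0.086% and 0.0893% in livers 2 to 4. Muscle, fat and pancreas markers held 0.000393% to 0.000537%, and Ckm, Plin1, Prss2 and Pnlip were at 0 throughout. In bulk tissue, fewer cells of a type and less RNA per cell cannot be told apart, which applies to each of these shares.

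A few genes held a large part of the RNA. The 100 most abundant genes of a liver held 47.8% and 49.6% of joined TPM in the females and 58.8% and 55.2% in the males, with a mean of 52.9% ± 5.06 (SD, n = 4). The top 10 held 22.9% and 24.0% in females and 28% and 25.4% in males. The number of genes needed to reach 50% of the TPM was 123 and 104 in the females and 46 and 63 in the males, so the male livers were the more concentrated on this scale. The groups did not overlap for any of these measures. At the other end, between 11932 and 12447 genes reached 1 TPM, 7950 to 8749 reached 5 TPM, and 12428 to 12521 genes were at 0. Membership of the top was largely shared, as 79 genes were in the top 100 of all 4 livers and 121 were in the top 100 of at least 1. The 25 highest ranks were shared less evenly, with 15 genes common to all 4 livers, 22 to both females and 23 to both males.

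**Figure D1:**
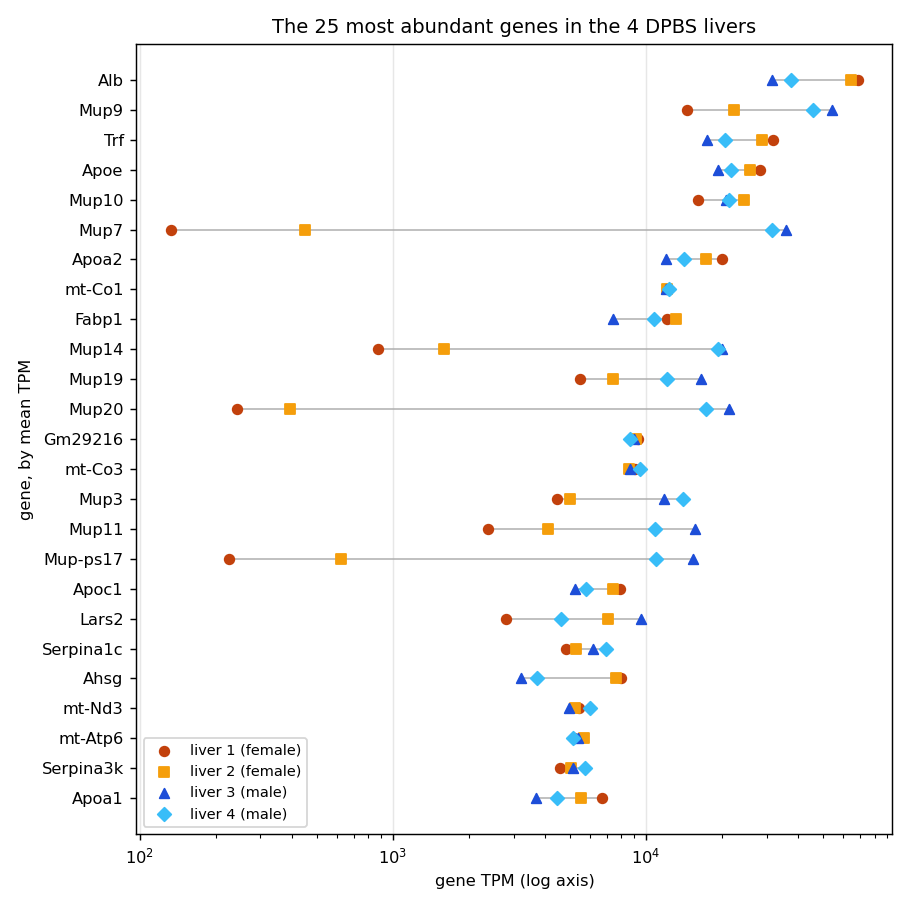
Gene TPM (log axis) of the 25 genes with the highest mean over the 4 DPBS livers, 1 row per gene and 1 symbol per liver. Alb lies at 68890 and 64530 in the females and 31620 and 37580 in the males, and Mup7, Mup14, Mup20 and Mup-ps17 show female and male symbols far apart, while mt-Co1 stays between 11950 and 12300.

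Secreted proteins led the order. Alb (chr5:90460897-90476602), the main carrier and osmotic protein of plasma, stood at 68890, 64530, 31620 and 37580 TPM, so both males lay below both females. Transferrin (Trf), the iron carrier, stood at 31710, 28810, 17360 and 20490 TPM, and apolipoprotein E (Apoe), a ligand for lipoprotein uptake, at 28160, 25720, 19180 and 21610 TPM. Apolipoprotein A2 (Apoa2) followed with 20060, 17280, 12050 and 14120 TPM. The males had the lower values for each of these genes on the TPM scale. Fetuin-A (Ahsg), an inhibitor of calcification, stood at 7975, 7634, 3203 and 3698 TPM, with the sexes again apart. Of the 25 leading genes, 17 were in the lists of secreted proteins, as were 44 of the leading 100.

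Beside them stood a fatty acid binding protein and mitochondrial genes. Fabp1, which carries fatty acids in the hepatocyte cytosol, had 12110, 13130, 7439 and 10790 TPM. The mitochondrially encoded oxidase subunit mt-Co1 was at 12100, 12150, 11950 and 12300 TPM, a CV of 1.21% on that scale, but at 12570 and 13540 CPM in the females and 16620 and 15130 CPM in the males. mt-Co3, another oxidase subunit, was at 9045, 8598, 8675 and 9435 TPM. The pseudogene Gm29216 was listed at 9267, 9172, 9000 and 8688 TPM, but 97.2% of the 31-base words of its transcript also occur in mt-Co1, so its reads cannot be told apart from those of the mitochondrial gene with confidence. Such shared sequence was common at the top. For 36 of the 100 leading genes over 50% of the 31-base words of the main transcript occur in another gene, and for 48 under 5% do. Alb, Apoe, Apoa1, Apoa2, Fabp1, Ttr, Ahsg and C3 share none.

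The order also depended on length. By CPM, which is not divided by length, Alb was again first with 72320, 74340, 45560 and 47260 CPM, and Trf, Apoe, mt-Co1 and Mup10 ranked 3, 5, 6 and 7. Mup9 was second by TPM but 21 by CPM, because 45.4% of its TPM lay on a transcript of 369 bases with an effective length of 172 and another 45.4% on an identical copy of it on an alternate sequence. The pseudogene Mup-ps17, of 218 bases, fell from rank 17 by TPM to 260 by CPM. Long transcripts moved the other way, as Cps1 ranked 22 by CPM. Mitochondrial leucyl-tRNA synthetase (Lars2) was 19 by TPM and 2 by CPM, with 7977, 21610, 36580 and 15620 CPM. Its rank by CPM is given with caution, since its level varied far more between the vehicle livers than that of Alb. Its share of the counts also had the same order across these livers as a short transcript joined to no gene, described below. Whether all of its reads came from Lars2 mRNA was not tested.

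RefSeq promoter sequence, here 250 bases before to 50 after the start of a gene on GRCm38.p6, was matched for 62 nuclear protein-coding genes of the top 100, and 22 had no entry. The letters TATA on the gene's strand between 45 and 15 bases before the start were found in 15 of them (24.2%), against 10.2% of 657 promoters of genes ranked 101 to 1000 and 3.93% of 6510 promoters of genes with a mean of at least 5 TPM. Over all 32851 promoter entries the share was 7.22%. The median number of CG pairs in the window of 300 bases was 4 for the leading genes, 17 for ranks 101 to 1000 and 22 for genes of at least 5 TPM. The letters GTTAAT, on either strand anywhere in the 300 bases, occurred in 24.2%, 9.13% and 5.01% of the same sets and in 7.1% of all entries. These are counts of letters with no test, and neighbouring Mup promoters are near copies of each other. Of the 62 promoter starts, 46 lay within 50 bases of the start of the most abundant transcript of the gene. That of Mup9 lay 1368 bases from it. The 30 bases around TATA are printed below for 5 Mup genes, to show that 4 of them are identical in this stretch, and for Fabp1, Cyp2e1, Hpx and Pck1 as leading genes of unrelated families. Capitals mark the letters TATA, and each line runs 5′ to 3′ on the strand of the gene.
Mup9, chr4:60421962-60421991, minus strand: ccagagagtaTATAaggacaagcaaagggg
Mup19, chr4:61782234-61782263, minus strand: ccagagagtaTATAaggacaagcaaagggg
Mup15, chr4:61439708-61439737, minus strand: ccagagagtaTATAaggacaagcaaagggg
Mup17, chr4:61595836-61595865, minus strand: ccagagagtaTATAaggacaagcaaagggg
Mup10, chr4:60582164-60582193, minus strand: tcagagattaTATAaggacaagcaaagggg
Fabp1, chr6:71199839-71199868, plus strand: agaatcccctTATAaaataggcaacagtgg
Cyp2e1, chr7:140763778-140763807, plus strand: aacgacacgtTATAaaatccttgtttctcc
Hpx, chr7:105600124-105600153, minus strand: accagttctaTATAagttcaacctcctgcc
Pck1, chr2:173153027-173153056, plus strand: ctcccttctaTATAgtatttaaagcaagga

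Sex was the main division among the vehicle livers. The biological coefficient of variation was 10.4% with sex as a term and 20.8% without it. With edgeR's quasi-likelihood test on the 4 livers and Benjamini-Hochberg adjustment, 615 of 8657 genes were called at an adjusted p under 0.05, which is 7.1%, with 275 higher in males (3.18%) and 340 higher in females (3.93%). At an unadjusted p under 0.05 there were 1911. The sexes did not overlap in all 615 called genes, but neither did they in 4688 of the tested genes (54.1%), as happens easily with 2 against 2. Without liver 1, 2 or 3, the counts were 257, 297 and 372. On the log2(TPM + 1) scale the median gene was at −0.26 in males minus females, against −0.00106 in log2 CPM, and limma on that scale called 129 genes higher in males and 691 higher in females. Sex differences below are therefore log2 differences of male minus female from the counts, with their SE, and values per liver are on the scale named.

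The same comparison was made in the other 8 livers with treatment as a term. Of the 615 genes, 554 (90.1%) had the same sign there and 203 (33.0%) were also called with the same sign, where 289 genes (3.34%) were called in all. Without Control-GalNAc-ASO liver 3, in the other 7 livers, 579 (94.1%) had the same sign and 399 (64.9%) were also called with that sign, where 1225 genes (14.2%) were called in all. A test of the difference between the sex effect in vehicle livers and in the other 8 called 0 of 8657 genes with edgeR, and 390 had an unadjusted p under 0.05. Against the other 7 it called 3 genes, Vmp1, Gadd45g and Hsd17b6, named after their values were seen, and 1021 had an unadjusted p under 0.05. The Y-linked genes Eif2s3y, Ddx3y, Uty and Kdm5d were each higher in both males, so the sex labels and the RNA of these 4 livers were in accord. Eif2s3y, a subunit of a translation initiation factor, stood at 0.348, 0.318, 42.2 and 52.1 TPM.

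**Figure D2:**
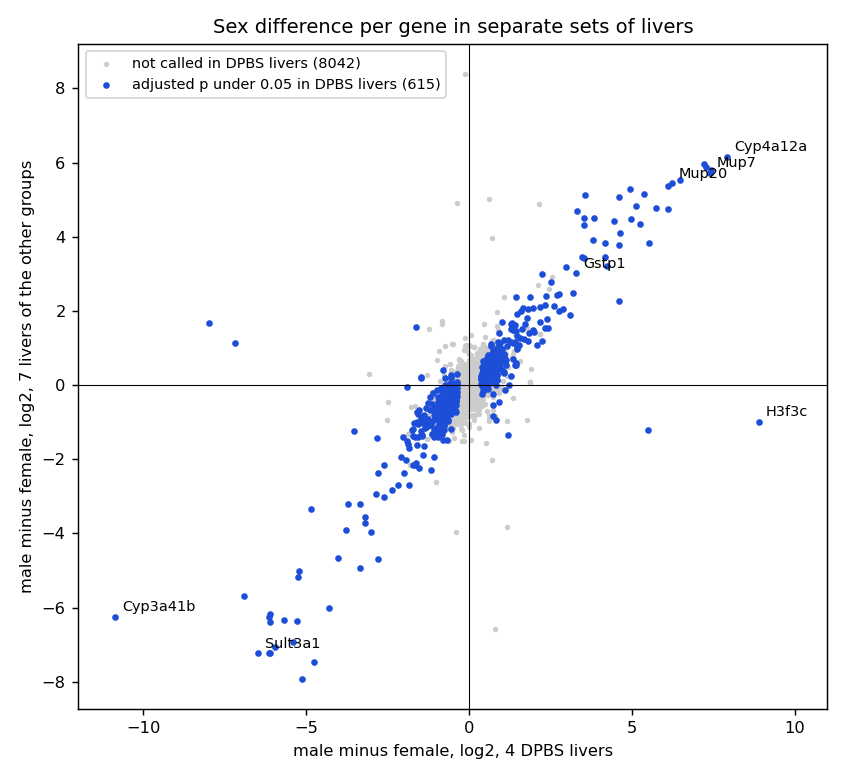
Male minus female log2 difference per gene in the 4 DPBS livers (horizontal) and in 7 livers of the other groups, without Control-GalNAc-ASO liver 3 (vertical), for the 8657 genes tested, with the 615 genes called in the DPBS livers in blue. Most blue points lie in the lower left and upper right, and H3f3c lies above zero on the horizontal axis and below it on the vertical one; the position of Cyp3a41b and of H3f3c, with counts of 0 in both DPBS males or both females, depends on the prior count of the fit.

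The Mups held the largest part of the sex difference. Their 21 genes held 4.84% and 7.57% of joined TPM in the females and 23.9% and 19.6% in the males, with a mean of 14.0% ± 9.20 (SD, n = 4). Of 20 tested, 15 were higher in males and 0 were higher in females, beside 3.18% and 3.93% of all genes tested, with a median log2 difference of 2.39. All 15 had the same sign in the other 8 livers and in the other 7, where 12 and 13 were called. Mup7 (chr4:60066469-60070475) stood at 133, 448, 35810 and 31390 TPM, a log2 difference of 7.38 ± 0.77 (SE; adjusted p = 0.00478, edgeR). Mup20, the male pheromone darcin, stood at 242, 391, 21270 and 17290 TPM, with a log2 difference of 6.22 ± 0.35 (adjusted p = 0.000804, edgeR). In both genes the females and the males were widely separated.

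The family was not uniform. Mup3 stood at 4451, 4990, 11740 and 14020 TPM, a log2 difference of 1.73 ± 0.12 (adjusted p = 0.00141, edgeR). Mup10 showed no call, at 16130, 24440, 20810 and 21340 TPM with a log2 difference of 0.33 ± 0.23 (adjusted p = 0.443, edgeR), and the sexes overlapped. Mup11 was at 2367, 4098, 15670 and 10850 TPM and Mup14 at 874, 1586, 20040 and 19250 TPM, both higher in males. The identity of single members is uncertain because the transcripts are near copies. Of the 31-base words, 98.5% of those of Mup7, 92.9% of Mup11, 86.4% of Mup10 and 61.9% of Mup20 occur in another gene, but only 32.7% of those of Mup3. Salmon divides such reads between members by estimate, so the family sum depends less on that division than the value of a member. The sum still depends on the scale and on the transcripts that take the reads. Its mean was 14.0% by joined TPM, 6.62% by counts and 11.8% without the alternate copies. The pseudogene Mup-ps17, with 0.735% of joined TPM, lies outside it.

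**Figure D3:**
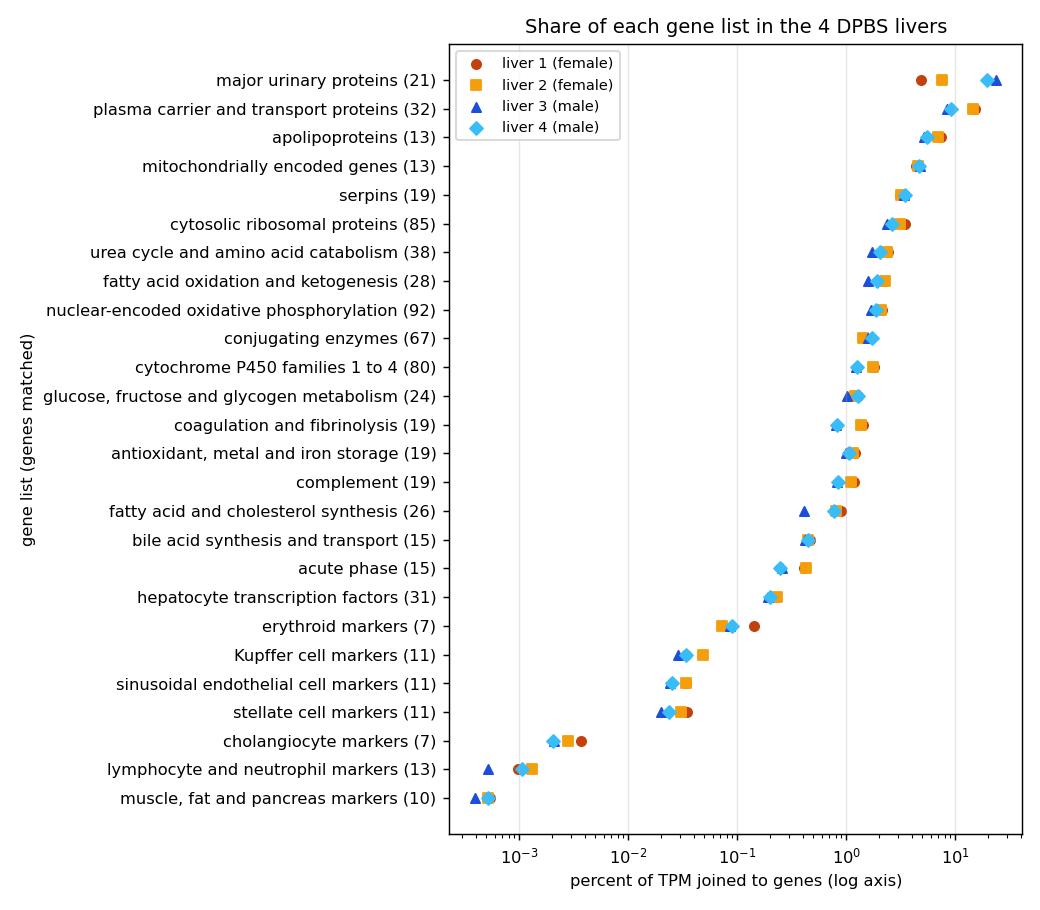
Percent of the joined TPM of a liver (log axis) held by each gene list in the 4 DPBS livers, with the number of genes matched in brackets. The Mups range from 4.84% to 23.9% with the males highest, plasma carriers from 8.35% to 15.1% with the females highest, and markers of other cell types lie at or below 0.141%.

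Plasma carrier and transport proteins were the largest list in the females. The 32 genes held 15.1%, 14.4%, 8.35% and 9.22% of joined TPM in livers 1 to 4, a mean of 11.8% ± 3.49 (SD, n = 4). Of 32 tested, 11 were higher in females and 0 in males, beside 3.93% and 3.18% of all genes tested, and all 11 had the same sign in the other 8 and the other 7 livers, where 6 and 10 were called. Alb had a log2 difference of −0.65 ± 0.09 (SE; adjusted p = 0.0116, edgeR) and Ahsg one of −0.89 ± 0.09 (adjusted p = 0.00413). Trf missed the threshold at −0.40 ± 0.09 (adjusted p = 0.0532). The vitamin D carrier Gc stood at 6318, 5668, 3846 and 4356 TPM, with a difference of −0.25 (adjusted p = 0.173, edgeR).

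Apolipoproteins, the protein part of lipoprotein particles, held 7.48%, 6.9%, 5.14% and 5.55% of joined TPM. All 13 were above 5 TPM in each liver. Of the 13, 4 were higher in females, beside 3.93% of all genes tested. They were Apoc3, Apof, Apom and Apoa4, which were named after their values were seen. Apoc3, an inhibitor of triglyceride clearance, stood at 3876, 3682, 2083 and 2309 TPM, with the sexes apart, and all 4 had the same sign in the other 7 livers, where 3 were called, while Apoa4 had the other sign in the other 8. The larger members were not called, with Apoe at −0.10 ± 0.09 (adjusted p = 0.53), Apoa2 at −0.22 ± 0.09 (adjusted p = 0.231) and Apoa1 at −0.30 ± 0.10 (adjusted p = 0.159, all edgeR).

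Serpins, the protease inhibitors of plasma, held nearly equal shares of 3.1%, 3.16%, 3.41% and 3.46%. Of 18 tested, 3 were higher in males and 3 in females, beside 3.18% and 3.93% of all genes tested. Serpina1c, an alpha-1-antitrypsin gene, stood at 4831, 5279, 6166 and 6941 TPM (log2 difference 0.66 ± 0.11, adjusted p = 0.0244, edgeR). Its relative Serpina1e, chosen after its values were seen, was at 186, 357, 5716 and 5205 TPM, and the log2 difference was 4.59. The others called were Serpina12, higher in males, and Serpinf2, Serpina3m and Serpina6, higher in females, and all 6 were called with the same sign in the other 7 livers, against 3 in the other 8, where Serpina3m had the other sign. Antithrombin (Serpinc1) was at 4775, 4160, 2598 and 3060 TPM and was not called (adjusted p = 0.0825). The alpha-1-antitrypsin copies share sequence, with 82.2% of the 31-base words of Serpina1c in another gene.

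Clotting factors held 1.44%, 1.37%, 0.812% and 0.826% of joined TPM. Of 17 tested, 6 were higher in females, beside 3.93% of all genes tested. The 3 fibrinogen chains, which form the clot, were among them. Fga stood at 2928, 2921, 1386 and 1471 TPM (log2 difference −0.74 ± 0.10, adjusted p = 0.0115, edgeR), and Fgg and Fgb were at −0.69 and −0.80, both called. In the other 8 livers Fga, Fgg and Fgb were at 0.78, 0.87 and 0.76, none of them called, and without Control-GalNAc-ASO liver 3 at −0.21, −0.16 and −0.20, again none called. Of the 6 called clotting genes, 3 kept their sign in the other 8 and 5 in the other 7 livers, where 1 and 2 were called.

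Complement genes were divided. C3, the central component, stood at 5311, 4651, 2360 and 2415 TPM (log2 difference −0.76 ± 0.10, adjusted p = 0.0101, edgeR), and the lectin Mbl2 at 678, 641, 265 and 342 TPM, at −0.84 (adjusted p = 0.00664). Of 19 tested, 3 were higher in females, these and Cfi, and 5 were higher in males, beside 3.93% and 3.18% of all genes tested. The 5 were C2 and the membrane attack genes C6, C8a, C8b and C9, and all 8 kept their sign in the other 8 and the other 7 livers, where 5 and 7 were called. C6, chosen after its values were seen, stood at 9.33, 15.8, 179 and 194 TPM, with no overlap of the sexes.

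Acute phase genes, which the liver makes in inflammation, were low, at 0.408%, 0.427%, 0.256% and 0.248% of joined TPM. The iron hormone hepcidin (Hamp) led them with 1693, 1467, 1283 and 1083 TPM and was not called (adjusted p = 0.708). Of 13 tested, 6 were higher in females, beside 3.93% of all genes tested. Fgl1 stood at 556, 517, 111 and 129 TPM, the lowest adjusted p of the list (log2 difference −1.87 ± 0.08, adjusted p = 0.000345, edgeR). Hamp2, a second hepcidin gene chosen after its values were seen, stood at 138, 278, 9.0 and 12.1 TPM. Orm1, which carries drugs in plasma, was at 896, 1073, 573 and 702 TPM and was not called. In the other 8 livers Lbp, Orm2 and Orm3 had the other sign and 1 of the 6, Hamp2, was called, whereas in the other 7 all 6 had the same sign and 2, Hamp2 and Fgl1, were called.

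All secreted lists together, 138 genes, held 33.6%, 35.0%, 42.6% and 39.8% of joined TPM, a mean of 37.7% ± 4.21 (SD, n = 4). Without the Mups the order turned, with 28.7% and 27.4% in the females and 18.8% and 20.1% in the males. Since TPM has a fixed total, the share of one family sets what is left for the rest, and the counts are the better guide to direction. On the counts, 23 of 132 tested secreted genes were higher in males and 33 in females, beside 3.18% and 3.93% of all genes tested. These are 15 Mups and 8 others against 33 others.

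Lists of metabolic enzymes each held under 3% of joined TPM. The 38 genes of the urea cycle and amino acid breakdown held 2.4%, 2.37%, 1.72% and 2.04% of joined TPM, and all 38 exceeded 5 TPM in every liver. Hpd, an enzyme of tyrosine breakdown, stood at 2937, 2680, 1573 and 1721 TPM and was higher in females (−0.46 ± 0.09, adjusted p = 0.0347, edgeR). The urea cycle enzyme Ass1 was at 2294, 2244, 1685 and 1899 TPM (adjusted p = 0.7) and Cps1 had a log2 difference of −0.05 ± 0.11 (adjusted p = 0.841). Of the 38, 4 were called, all higher in females (Hpd, Glud1, Agxt and Dpys, the last 3 named after their values were seen), beside 3.93% of all genes, and all 4 kept their sign in the other 8 and the other 7 livers, where 0 and 1 were called by edgeR. Tyrosine aminotransferase (Tat) varied within the males, at 678 and 1688 TPM, beside 1591 and 1261 TPM in the females.

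Genes of glucose, fructose and glycogen metabolism held 1.29%, 1.21%, 1.01% and 1.27%. By edgeR 0 of 23 tested were called in either direction, beside 7.1% of all genes tested. Pck1 and Fbp1, which control glucose production, were at 2131, 1748, 1596 and 1839 TPM and at 1268, 1517, 1062 and 1500 TPM, and the sexes overlapped in both.

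Fatty acid oxidation and ketogenesis held 2.2%, 2.28%, 1.57% and 1.93% of joined TPM, most of it Fabp1. Of 28 tested, 4 (Bdh1, Hadh and Ehhadh among them, named after their values were seen) were higher in females, beside 3.93% of all genes tested. Of these 4, 3 and 2 kept their sign in the other 8 and the other 7 livers, and 0 were called by edgeR in either.

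Fatty acid and cholesterol synthesis was the most variable metabolic list, with 0.887%, 0.802%, 0.408% and 0.767% of joined TPM and a median CV of 35.1% over its genes. Of 26 tested, 9 were higher in females and 0 in males, beside 3.93% and 3.18% of all genes tested. The median log2 difference was −0.64, and all 9 kept their sign in the other 8 and the other 7 livers, where 2 and 6 were called. Among the 9 were Hmgcs1, Idi1, Fdft1, Sqle and Cyp51, known as enzymes of cholesterol synthesis, and Srebf2, a regulator of it, named after their values were seen. Hmgcs1, an early enzyme of that pathway and chosen after its values were seen, stood at 433, 343, 58.8 and 99.3 TPM. The fatty acid desaturase Scd1 behaved otherwise, at 2224, 2139, 1658 and 3162 TPM with the highest value in a male. The regulator Srebf1 stood at 770, 816, 231 and 438 TPM and was not called (adjusted p = 0.109, edgeR).

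Bile acid genes held 0.467%, 0.45%, 0.421% and 0.442%. The uptake carrier Slco1b2 led with 932, 845, 737 and 823 TPM. Of 15 tested, 3 were higher in males and 2 in females, beside 3.18% and 3.93% of all genes tested. Cyp7b1, an oxysterol hydroxylase of the alternative pathway, stood at 20.2, 18.4, 194 and 168 TPM and the carrier Slco1a1 at 54.9, 65.5, 301 and 366 TPM, and both were also called in the other 8 and the other 7 livers. The others were Cyp8b1, higher in males, and Hsd3b7 and Akr1d1, higher in females, and all 5 were named after their values were seen and kept their sign in the other 8 and the other 7 livers, where 2 and 3 were called.

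Antioxidant and iron storage genes held 1.21%, 1.16%, 0.991% and 1.06%, led by the ferritin light chain Ftl1 at 3122, 2746, 2534 and 3055 TPM. Glutathione peroxidase Gpx1 (2465, 2401, 1653 and 1678 TPM) and catalase (Cat, 1494, 1476, 1409 and 1594 TPM) followed and were not called. Of 19 tested, 3 were higher in females (Mt1, Mt2 and Nqo1), beside 3.93% of all genes tested. The metallothionein Mt1, which binds zinc and was chosen after its values were seen, stood at 128, 104, 17.1 and 13.7 TPM in the vehicle livers, with a log2 difference of −2.61 ± 0.18. In the other 8 livers the difference was 0.68 ± 2.55 and was not called, and without Control-GalNAc-ASO liver 3, which held 2791 CPM of Mt1, it was −3.01 ± 0.34 and was called.

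Hepatocyte transcription factors were expressed far below the genes they control. The 31 genes held 0.227%, 0.231%, 0.19% and 0.198% of joined TPM. Cebpa led with 277, 283, 208 and 236 TPM, followed by Hnf4a with 205, 231, 174 and 191 TPM, and neither was called. Of 29 tested, 1 was higher in males and 1 in females, beside 3.18% and 3.93% of all genes tested. The one higher in females was Cux2, a known female-biased repressor named after its values were seen. Of these 2 genes, Cux2 kept its sign in the other 8 livers and in the other 7, and the male one did not. Cux2 stood at 39.3, 19.9, 4.21 and 3.47 TPM. Markers of the portal and central zones of the lobule held 0.965% to 1.21% and 0.524% to 0.699%, and the central enzymes Cyp2e1, at 3623, 3225, 2632 and 2428 TPM, and Glul, at 1242, 1087, 655 and 921 TPM, were not called.

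Enzymes of drug and steroid metabolism held many of the sex calls. Of the 80 cytochrome P450 genes of families 1 to 4, 38 exceeded 5 TPM in all 4 livers and 6 were at 0 in all. Of 48 tested, 8 were higher in males and 17 in females, beside 3.18% and 3.93% of all genes, and 24 of the 25 kept their sign in the other 8 livers (Cyp2c70 the exception) and in the other 7 (Cyp4a10 the exception), where 17 and 23 were called. Cyp2e1 led by mean TPM, and Cyp2c29 followed at 1204, 983, 1107 and 1493 TPM with no call. Cyp2a5 stood at 1369, 1701, 316 and 517 TPM (log2 difference −1.61 ± 0.21, adjusted p = 0.0116, edgeR). Cyp4a12a, a male-specific fatty acid hydroxylase, stood at 0.312, 0.632, 87.2 and 101 TPM (7.92 ± 0.22, adjusted p = 0.000118, edgeR). Cyp3a41b had 6.65 and 9.85 TPM in the females and was at 0 in both males, so the female mean was at least 74.3-fold higher than the floor of 3 counts per library. Its transcript shares 95.9% of its 31-base words with Cyp3a41a.

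The 67 conjugating enzymes, which attach glutathione, glucuronic acid or sulfate, followed the same pattern. Of 50 tested, 12 were higher in males and 22 in females, again beside 3.18% and 3.93% of all genes, and 33 of the 34 kept their sign in the other 8 livers (Sult1b1 the exception) and 32 in the other 7 (Gstt2 and Sult1b1), where 18 and 30 were called. The microsomal enzyme Mgst1 led with 4436, 4470, 4348 and 5588 TPM and was not called (adjusted p = 0.0647). Gstp1, a glutathione transferase, stood at 372, 382, 2980 and 3060 TPM (3.29 ± 0.11, adjusted p = 0.000158, edgeR), with 67.5% of its 31-base words in Gstp2. The sulfotransferase Sult3a1 stood at 514, 329, 5.16 and 2.37 TPM, at −6.49 ± 0.39 (adjusted p = 0.000871, edgeR). The sexes were far apart in both.

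Some of the largest differences belonged to genes that share sequence and were near the detection floor. H3f3c, annotated as a processed pseudogene of a histone gene and listed at 0.00492, 0.0205, 10.9 and 19.9 TPM, was called higher in males (adjusted p = 0.0107, edgeR), and with rounded counts of 0 in both females the male mean was at least 20.5-fold higher than the floor of 3 counts per library, but its difference was −0.43 in the other 8 livers and −0.99 in the other 7 (adjusted p = 0.871 and 0.654), and 82.9% of its 31-base words occur in another gene. Rps25-ps1 (7.7 and 5.77 TPM in females, 0 in both males) is a ribosomal protein pseudogene with 81.6% of its words elsewhere. It was called higher in females, at least 5.78-fold over the floor of 3 counts per library, with a difference of 0.46 in the other 8 livers and 1.15 in the other 7, where it was not called.

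Housekeeping groups showed few sex calls, beside 7.1% of all genes tested. The 85 cytosolic ribosomal proteins held 3.43%, 3.13%, 2.38% and 2.64% of joined TPM, and 0 of 81 tested were called by edgeR. The 92 nuclear genes of oxidative phosphorylation held 2.14%, 2.1%, 1.7% and 1.88%, with 0 of 84 called and a median CV of 5.06%, below the 9.48% of all tested genes. The 13 mitochondrially encoded genes held 4.34%, 4.54%, 4.74% and 4.61%, and 1, mt-Co2, was called higher in males on the counts at 0.53 ± 0.11 (adjusted p = 0.0481, edgeR). It was not called in the other 8 livers (0.26) or the other 7 (−0.01), and all of its 31-base words occur in other genes. The share of the 13 genes leaves out reads placed on pseudogenes of the same sequence. Gm29216, with 97.2% of its words in mt-Co1, held 0.96% of joined TPM. Gm28661, with 100% of its words in mt-Co2, ranked 30 by TPM, above mt-Co2 at 64.

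Isoform use was compared over the 4 livers. Genes with a transcript on an alternate sequence were left out, which removed 41 with at least 5 TPM in all 4 livers. Of the 7612 others at that level, 5773 had 2 or more transcripts, with a median of 6. The leading transcript held a median of 53.7% of the TPM of its gene, at least 90% in 618 genes (10.7%) and under 50% in 2522 (43.7%). It was the same transcript in all 4 livers for 4169 genes (72.2%). The leading transcript had the protein_coding biotype in 83.0% of 5746 protein-coding genes, processed_transcript in 7.57%, retained_intron in 6.32% and nonsense_mediated_decay, the class predicted to be removed by the pathway that Upf3b serves, in 3.1%. By TPM, nonsense_mediated_decay transcripts held 2.3%, 2.21%, 1.75% and 1.89% of the joined total.

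**Figure D4:**
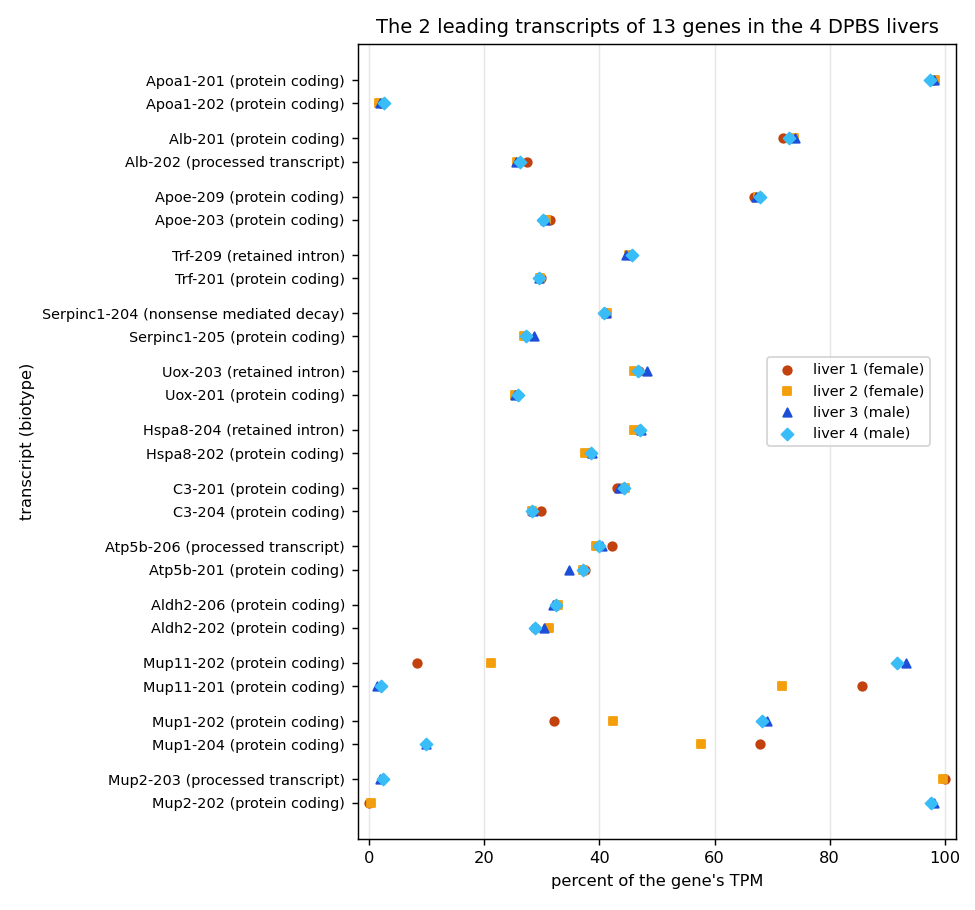
Percent of the TPM of a gene on each of its 2 leading transcripts in the 4 DPBS livers, with the biotype of the transcript in brackets, for 13 named genes. The 4 symbols nearly coincide for Apoa1, Alb, Apoe, Trf and Serpinc1, and female and male symbols lie apart for Mup11, Mup1 and Mup2.

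Over these genes the share of the leading transcript differed by a median of 4.61 points between the females and 4.80 points between the males, and abundant genes lay closer. Alb-201, of 2034 bases, held 71.9%, 73.8%, 74.0% and 72.9% of Alb, and a processed transcript of 331 bases, Alb-202, held nearly all the rest. Apoa1-201 held 97.9%, 98.3%, 98.1% and 97.5% of Apoa1, and Apoe-209 held 66.8%, 67.5%, 67.3% and 67.8% of Apoe. In some genes a short noncoding model led. For Trf the leading transcript was Trf-209, a retained_intron model of 433 bases with 45.3%, 45.1%, 44.7% and 45.7%, ahead of the coding Trf-201 of 2571 bases with 29.5% to 29.9%. Serpinc1-204, a nonsense_mediated_decay model of 742 bases, held 41.1%, 41.3%, 41.1% and 40.8% of Serpinc1. Retained_intron models also led in Uox (46.1% to 48.3%) and Hspa8 (46.1% to 47.2%). Of the 31-base words, 84.6% of those of Trf-209 and 66.4% of those of the Hspa8 model occur in another gene. Serpinc1-204 and the Uox model share none. Division by effective length raises short models, and by counts instead of TPM the median leading share was 72.9%.

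A different transcript led in both females than in both males for 147 genes (2.55%), with no test. Some of the largest shifts were in Mups. Mup2-203 held 100% and 99.6% in the females and 1.96% and 2.47% in the males, where Mup2-202 held 98.0% and 97.5%. Mup11-202 held 8.24% and 21.2% in the females and 93.2% and 91.7% in the males. Mup1-202 held 32.2% and 42.4% in the females and 69.1% and 68.3% in the males. All 31-base words of Mup2-202 occur in other genes, and the part of shared reads in these shifts was not tested. Lypla2-201, none of whose words occur in another gene, held 17.6% and 12.7% of Lypla2, a depalmitoylating enzyme, in the females and 72.5% and 58.6% in the males. Words unique to a gene do not settle how its reads are divided among its own transcripts. Lypla2-202, of 1588 bases beside 1626, held 53.1% and 58.4% in the females but 0.0127% and 27.7% in the males. The gene had a mean of only 20.9 TPM, and error in this division was not tested.

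Most genes varied little between the 4 livers. The median CV of CPM was 9.48% over 8657 genes, beside 4.22% from counting error alone, with 4585 genes (53.0%) under 10% and 250 (2.89%) over 50%. By median, the most abundant genes were the least even. In the top 25 the median CV was 22% against a counting error of 0.297%, while genes ranked 1001 to 4000 had a median of 8.31%. Of the 25, 9 exceeded 50%, namely Mup3, Mup7, Mup9, Mup11, Mup14, Mup19, Mup20, Mup-ps17 and Lars2. Other leading genes were steadier, such as Apoe at 15250, 15040, 14000 and 14000 CPM. These CVs pool the sexes. Between the 2 females 73 genes differed more than 2-fold and between the 2 males 89, against 254 to 353 between a female and a male. The median absolute log2 difference was 0.1 in the female pair, 0.13 in the male pair and 0.15 to 0.18 across sexes.

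**Figure D5:**
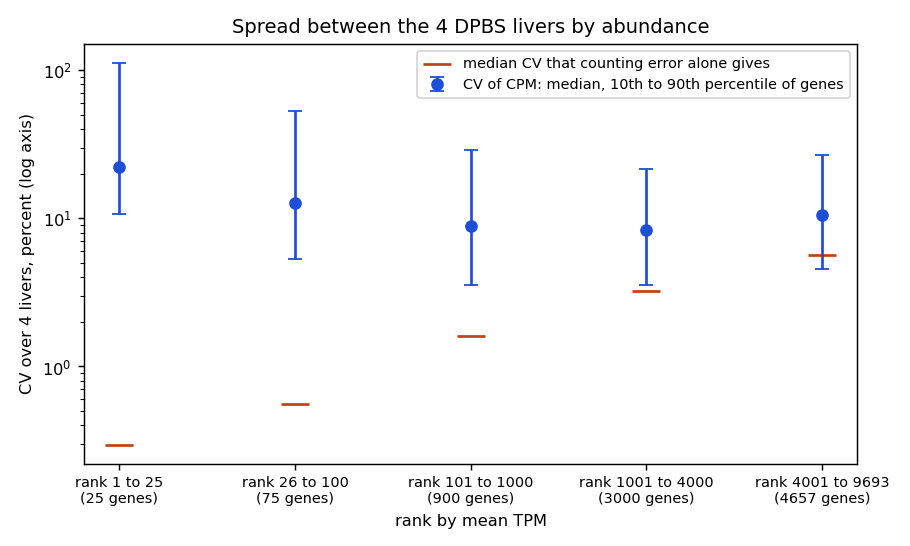
CV of CPM over the 4 DPBS livers by rank of mean TPM (log axis), as the median and the 10th to 90th percentile of genes (blue), with the median CV that counting error alone gives (red). The median falls from 22% in the top 25 to 8.31% at ranks 1001 to 4000 while the counting error rises from 0.297% to 3.21%.

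The steadiest genes with at least 50 TPM were Lmbrd1, a lysosomal cobalamin exporter, Txndc15, the pseudogene Gm42857, Dad1, a subunit of the oligosaccharyltransferase, and Fbxo9. Lmbrd1 stood at 85.1, 85.6, 86.8 and 85.8 CPM and Dad1 at 34.1, 33.8, 33.3 and 33.5 CPM. They were picked as the lowest CVs of the same 4 livers, so steadiness in other livers was not shown. For Dad1, with 567 to 680 counts, the SD of 0.35 CPM lay below counting error alone. In the other 8 livers Dad1 ranged from 25.1 to 30.8 CPM in females and from 27.9 to 42.0 CPM in males. Fbxo9 ranged there from 60.2 to 80.0 CPM in females and from 22.3 to 95.3 CPM in males. The largest differences within a sex were mostly in pseudogenes that share sequence. Rpl10-ps1, all of whose 31-base words occur in other genes, stood at 28 and 0.00834 TPM in the females and 0.0389 and 37.4 TPM in the males. Rpl23a-ps3 (61.4 and 8.64 TPM) and Gm6851 (13 and 0.305 TPM) followed in the females, and Sult2a2 (2.55 and 0 TPM) and Gm12895 (7412 and 2373 TPM) in the males. Sult2a2, a sulfotransferase, was at 103 and 113 TPM in the females and was called (−6.10 ± 0.60, adjusted p = 0.00413, edgeR).

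Against the scrambled Control-GalNAc-ASO, the vehicle livers differed in 1 of 8856 genes with edgeR over all 12 livers and sex as a term (0.0113%), and 615 had an unadjusted p under 0.05. The gene was Cask, a scaffold kinase, named after its values were seen, at −1.15 ± 0.13 with the ASO (adjusted p = 0.021). Without Control-GalNAc-ASO liver 3 the count was 5 (Cask, Dct, Mpv17l, Depdc5 and Ext1). With the replicate number as a block in place of sex, 0 genes were called, with 492 at an unadjusted p under 0.05. None of the 100 most abundant genes by the mean of the 12 livers was called by edgeR with or without that liver. Their log2 differences ran from −0.40 to 1.25 with a median of 0.05, and from −0.51 to 0.92 without that liver, and 90 of the top 100 of the vehicle group were also in the top 100 of the control ASO group. A p above the threshold does not show that the levels were equal.

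Against Upf3b-GalNAc-ASO, 791 of 8856 genes were called (8.93%), with 316 higher with the ASO (3.57%) and 475 lower (5.36%). Upf3b, the target, was at −3.51 ± 0.27 (adjusted p = 3.24e-05, edgeR). Without Control-GalNAc-ASO liver 3, which the fit uses although this contrast does not compare it, 2546 genes were called, 1218 higher and 1328 lower. Among the 100 most abundant genes 12 were called (12%), beside 8.93% of all tested, with 2 higher and 10 lower. Without that liver 29 of the 100 were called, beside 2546 of all 8856. The 10 lower genes of the main fit included 5 alpha-1-antitrypsin genes, Serpina1a to Serpina1e, with Serpina1e at −3.11, and also Trf at −0.58 and Ahsg at −0.49. Alb, at −0.32 ± 0.13 (adjusted p = 0.166, edgeR), was called only without that liver. Of the top 100 of the vehicle group, 92 were also in the top 100 of this group. The vehicle livers enter both comparisons, so these are not independent of each other.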

How the data were processed

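Total liver RNA was sequenced by the authors from TruSeq libraries after demultiplexing with bcl2fastq 2.17.1.14, and transcripts were quantified with Salmon 0.7.2 against Ensembl mouse cDNA (GRCm38; GRCm38.p4 in the submitters' processing notes). The deposited estimated counts are the reads assigned to each of 92468 transcripts, fractional where shared. The deposited TPM, per the file headers, divides them by effective length. No reads were counted with molecular identifiers, and the floors and counting CVs cover counting error only.

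Transcripts were joined to genes by Ensembl identifier through GENCODE M21 (90712), and 480 more on alternate sequence by MGI symbol. In 49 of 51 such genes with a mean of at least 5 TPM, 49% to 51% of the TPM lay on these copies. Of the transcripts, 1276 were not joined. Counts were summed per gene and rounded. Genes with at least 5 TPM in at least 2 of the 4 DPBS livers (sex comparison) or 4 of 12 (groups) were tested by quasi-likelihood in edgeR 4.0.16 with TMM and Benjamini-Hochberg adjustment at 0.05. SEs came from the log2 difference and its F statistic. Alternatives used DESeq2 1.42.0, limma 3.58.1 after log2 of TPM plus 1 or plus 0.1, other filters and left-out livers; the join without alternate copies, the sex comparison in the other groups and its repeat without Control-GalNAc-ASO liver 3 were added after seeing the data. Figures were drawn with matplotlib 3.10.9.

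The members and lists were chosen with earlier results of these data known. Genes named are the 25 most abundant, the markers, the up to 4 most abundant of each list and marker genes at 0, up to 6 per direction of the largest sex differences, the 3 largest differences within each sex, the 5 steadiest, and isoform extremes; others are said to be chosen after their values were seen. Lists matched all their genes except C4a and Ahsp. On simulated counts with 200 changed genes among 8657, the sex test recovered 95% at a log2 change of 1 and 100% at 2. Each simulated gene had the dispersion of the fitted trend, and reads shared between genes were not simulated. Genes that vary more than the trend were thus not covered, and recovery in the real livers may be lower. Every pair of replicates differed by more than sampling noise. Same-numbered livers of different groups deviated together from their group means (r from 0.206 to 0.668), but a number also fixes the sex, and within sex r ran from −0.111 to 0.162, so the numbers were not taken to pair animals. Some genes are not reported here, and Xist was not analysed.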

Additional observations from a re-analysis of the deposited data

Results flagged for a closer look

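Of 145 named genes and 31 lists, 6 had a liver that stood apart, where the gap to the nearest other liver, as a share of the range of the 4, exceeded Dixon's 95% critical value. Chance alone gives this in about 1 in 20 groups. For Scd1 the gap was 0.951 of the range, with liver 4 highest at 13410 CPM beside 7965, 8221 and 7953. For Cebpa it was 0.907, with liver 2 highest at 571 CPM beside 521, 525 and 526. For Rpl23a-ps3 it was 0.897, with liver 1 highest at 14.9 CPM beside 2.24, 1.23 and 0.788. For S100a9 it was 0.836, with liver 1 highest at 0.722 CPM beside 0.298, 0.352 and 0.368. For Gm12895 it was 0.83, with liver 3 highest at 561 CPM beside 76.5, 124 and 159. For the muscle, fat and pancreas markers it was 0.84, with liver 3 lowest.

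A transcript joined to no gene, of 159 bases with an effective length of 48.8, held 2.39%, 5.3%, 9.45% and 4.0% of all TPM in livers 1 to 4, a mean of 5.29% ± 3.02 (SD, n = 4), which is more than Alb in some livers, but only 0.0919% to 0.44% of the counts. It lies outside the gene comparisons. In the other 8 livers it held 3.88% to 16.0%. Lars2 had the same order across the DPBS livers, with 0.815%, 2.15%, 3.39% and 1.51% of the counts.

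The sex difference differed from that in the other groups for 3 genes, by a test of the difference itself without Control-GalNAc-ASO liver 3 (edgeR, adjusted p = 0.0149, 0.0065 and 0.0027). For Vmp1, an autophagy protein, the male minus female log2 difference was −0.09 in the DPBS livers and 1.08 in the other 7, a gap of −1.18 ± 0.13 (SE). For Gadd45g, a stress response gene, it was −1.63 and 1.56, a gap of −3.20 ± 0.32. For Hsd17b6, a steroid dehydrogenase, it was −1.90 and −0.05, a gap of −1.85 ± 0.15. With all 12 livers none of the 3 was called.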

How the results depend on the processing

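With 2 livers per sex, counts of calls moved with single animals. The sex count of 615 was 240 under the cutoffs of the study and 257 to 582 with a liver left out, and the other alternatives stayed between 596 and 858. Of 39 called named genes, 35 were called under every alternative that kept 4 livers and 26 under every alternative, with 0 reversals. Against Control-GalNAc-ASO, the count of 1 was 45 with the DESeq2 Wald test, 0 with limma at either pseudocount (445 and 431 at an unadjusted p under 0.05), 0 under the replicate block (492) and 0 to 5 with a liver left out. Against Upf3b-GalNAc-ASO, the count of 791 was 1275 with DESeq2, 326 and 314 with limma and 606 under the replicate block. It was 492, 473 and 499 without DPBS livers 1, 3 and 4, 458 and 400 without Upf3b-GalNAc-ASO livers 2 and 4, and 2546 without Control-GalNAc-ASO liver 3, with 400 to 2546 over all left-out livers. That liver, whose acute phase genes stood far above the others, was left out after its values were seen.

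Shares by counts in place of TPM were 43.6% for the top 100 genes, 30.2% for secreted proteins, 6.62% for Mups and 2.63% for mitochondrially encoded genes. The last was 4.56% by joined TPM, 4.29% of all TPM and 4.27% without short transcripts. The median leading isoform share of 53.7% was 54.4% from 1 TPM, 54.6% from 20 TPM and 72.9% by counts, and the share of genes with the same leader was 65.9%, 79.8% and 84.8%, and 75.6% to 76.6% with 3 livers, where fewer have to match. The median CV of 9.48% was 16.7% on TPM, 8.76% from 50 TPM and 8.21% to 9.63% with a liver left out. Other causes were not tested.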
